A study of Mus musculus with 8 samples.

Results

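The genes described here encode the Wnt ligands, the receptors and co-receptors that bind them, the R-spondin branch, the secreted antagonists and a few feedback and nuclear genes of the same pathway, in mouse embryoid bodies lacking Prdm16 or its PR domain. Members were table rows named in full as a numbered Wnt, Fzd, Sfrp or Dkk gene, or as Lrp5, Lrp6, Lgr4, Lgr5, Rspo1, Rspo2, Rspo3, Wif1, Frzb, Axin2, Lef1, Tcf7, Nkd1, Notum, Porcn, Ror1 or Ror2. They also had to reach a value of 10 in at least 2 of the 8 libraries. Of 62 rows with such a name, 54 rows of 46 genes passed, among 52281 named loci in all. The 8 rows below that floor were Wnt3a, Wnt7a, Wnt8a, Wnt10a, Wnt16, Wif1, Sfrp4 and Dkk4. Just below it stood Wif1, with a highest value of 8.46, and Wnt3a and Wnt8a, each with 6.36, while Wnt9b, Wnt10b, Fzd9 and row 3 of Wnt5b reached the floor in only 2 libraries. Both libraries of all 4 groups were at 10 or more for 39 of the 54 rows, so the other 15 rows passed on the strength of their higher groups. Fzd5, Fzd6, Wnt5b, Lef1 and Ror1 together hold 13 rows, 2 to 4 each, and the table does not show whether the rows of a gene share fragments.

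Embryoid bodies are aggregates of embryonic stem cells that differentiate into derivatives of all germ layers. RNA was taken on day 9 from 4 groups of 2 libraries, all on a C57BL/6 background: a Prdm16 knockout, the wild-type control set named with it, a knockout of the PR domain that the sample names place at exon 4, and a further wild-type control set named with that knockout. Prdm16 is a zinc finger transcription factor, and its PR domain resembles the SET domain of enzymes that methylate histones. The labels do not say how many clones or cultures stand behind a group, so the p-values below rest on library-to-library spread that may be purely technical. Levels are normalised fragments, the deposited fragments per locus divided by a size factor of the library. Changes are given as differences of log2(value + 1) with their standard error (SE), and a member is called where the adjusted p of limma-trend, over 16623 loci, is below 0.05.

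Wnt proteins are secreted, lipid-modified ligands. Binding to a Frizzled receptor together with Lrp5 or Lrp6 stabilises beta-catenin, which then acts on target genes with the DNA-binding factors Lef1 and Tcf7, whereas Ror receptors serve branches that do not use beta-catenin. R-spondins bind Lgr receptors and keep Frizzled receptors on the cell surface, Dkk1 blocks Lrp5 and Lrp6, and Sfrp proteins and Frzb bind Wnt ligands outside the cell. In the early embryo Wnt signals act in the primitive streak and mesoderm and later pattern the neural tube.

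To show the sequence next to the genes whose levels moved, the 250 bases before the gene start were taken from RefSeq (GRCm38.p6) and searched on both strands for the Lef1 and Tcf7 core motifs CTTTGAT and CTTTGAA, which are in capitals where found. A window was given for 31 of the 46 genes, 38 windows in all. The motif was in 3 of these 38 windows (7.89%), those of Dkk1, Wnt11 and Wnt5b, against 7.48% of 32851 windows of the same length over all genes. The Dkk1 match starts 117 bases before the RefSeq start, in a window that overlaps an annotated exon by 169 bases, and this window is not printed. Of the windows free of annotated exons, those of Wnt11 and Rspo1 (both higher in both knockouts), Wnt5b (called higher in the PR domain knockout) and Axin2 (lower in the Prdm16 knockout, the widely used readout of the pathway) are given 5′ to 3′ on the strand of the gene. The Wnt11 window, chr7:98834862-98835111 on the plus strand, holds the core in reverse orientation 51 bases before the start. The Wnt5b window, chr6:119449387-119449636 on the minus strand, lies before an internal start of the gene and holds it 71 bases before that start. The other windows of Wnt11 and Wnt5b, not printed, hold none. The Rspo1 window, chr4:124986180-124986429 on the plus strand, and the Axin2 window, chr11:108920099-108920348 on the plus strand, hold none, which says only that these letters are not in these windows.
Wnt11: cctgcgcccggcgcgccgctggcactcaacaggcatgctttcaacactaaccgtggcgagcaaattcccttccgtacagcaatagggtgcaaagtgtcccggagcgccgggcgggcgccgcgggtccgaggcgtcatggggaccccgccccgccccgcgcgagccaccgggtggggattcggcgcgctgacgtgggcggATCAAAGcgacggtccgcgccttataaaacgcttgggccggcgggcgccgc
Wnt5b: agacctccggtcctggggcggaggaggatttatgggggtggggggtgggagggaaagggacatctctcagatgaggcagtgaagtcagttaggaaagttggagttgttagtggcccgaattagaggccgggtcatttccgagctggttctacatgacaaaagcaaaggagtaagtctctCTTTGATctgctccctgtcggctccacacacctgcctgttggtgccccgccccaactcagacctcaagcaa
Rspo1: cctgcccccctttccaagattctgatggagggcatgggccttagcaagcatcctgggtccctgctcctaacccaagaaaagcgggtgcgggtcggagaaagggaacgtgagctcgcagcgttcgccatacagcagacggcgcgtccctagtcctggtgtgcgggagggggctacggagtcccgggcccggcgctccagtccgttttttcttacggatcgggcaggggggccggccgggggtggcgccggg
Axin2: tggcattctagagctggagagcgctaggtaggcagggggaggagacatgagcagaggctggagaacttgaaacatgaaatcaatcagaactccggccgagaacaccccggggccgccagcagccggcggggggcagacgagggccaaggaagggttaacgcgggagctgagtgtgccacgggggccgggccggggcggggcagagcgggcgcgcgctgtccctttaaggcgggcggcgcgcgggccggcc

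Prdm16 itself had 11.2 and 1.10 normalised fragments in the Prdm16 knockout, against 24.4 and 26.3 in its control. It had 23.3 and 15.7 in the PR domain knockout, against 44.6 and 22.7 in the control of that knockout. Knockout replicate 1 thus kept 9 fragments and replicate 2 only 1. The log2 change was -2.38 ± 0.50 (SE, adjusted p = 0.000306) in the Prdm16 knockout and -0.71 ± 0.50 (adjusted p = 0.377) in the PR domain knockout. Without Prdm16 knockout replicate 2 the first change was -1.11, without replicate 1 it was -3.65, and on log2(FPKM + 1) it was -0.69 (adjusted p = 0.213). The locus count covers the whole gene, so it does not test the loss of a single exon. Ddx3y, a Y-linked gene, had 0 and 0 fragments in the Prdm16 knockout, against 464 and 545 in its control, and 958 to 1387 in the other 4 libraries, so the knockout and its control differ in more than Prdm16. Depth was 6273789 to 9086885 fragments on named loci. Markers of neural progenitors, endoderm, cardiomyocytes, endothelium, erythroid cells, macrophages and fibroblasts were all measured, with no listed marker at 0 in all 8 libraries.

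Levels were compared between genes by FPKM, the fragments per length of transcript and library size that the authors deposited. The antagonist Sfrp1 was highest, at a mean of 89.4 FPKM over the 8 libraries. Next came the receptor Fzd7 at 27.0, the antagonist Sfrp2 at 24.8, the receptor Fzd2 at 24.1, the co-receptor Lrp5 at 23.2, the ligand potentiator Rspo1 at 23.0 and the co-receptor Lrp6 at 20.4 FPKM. Lgr4, an R-spondin receptor, had 17.4 FPKM. Wnt2 and Wnt11 were the ligands with the highest single-row levels, at 15.7 and 13.6 FPKM. Wnt1, Wnt8b and Wnt9b averaged 0.338, 0.207 and 0.189 FPKM.

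**Figure D1:**
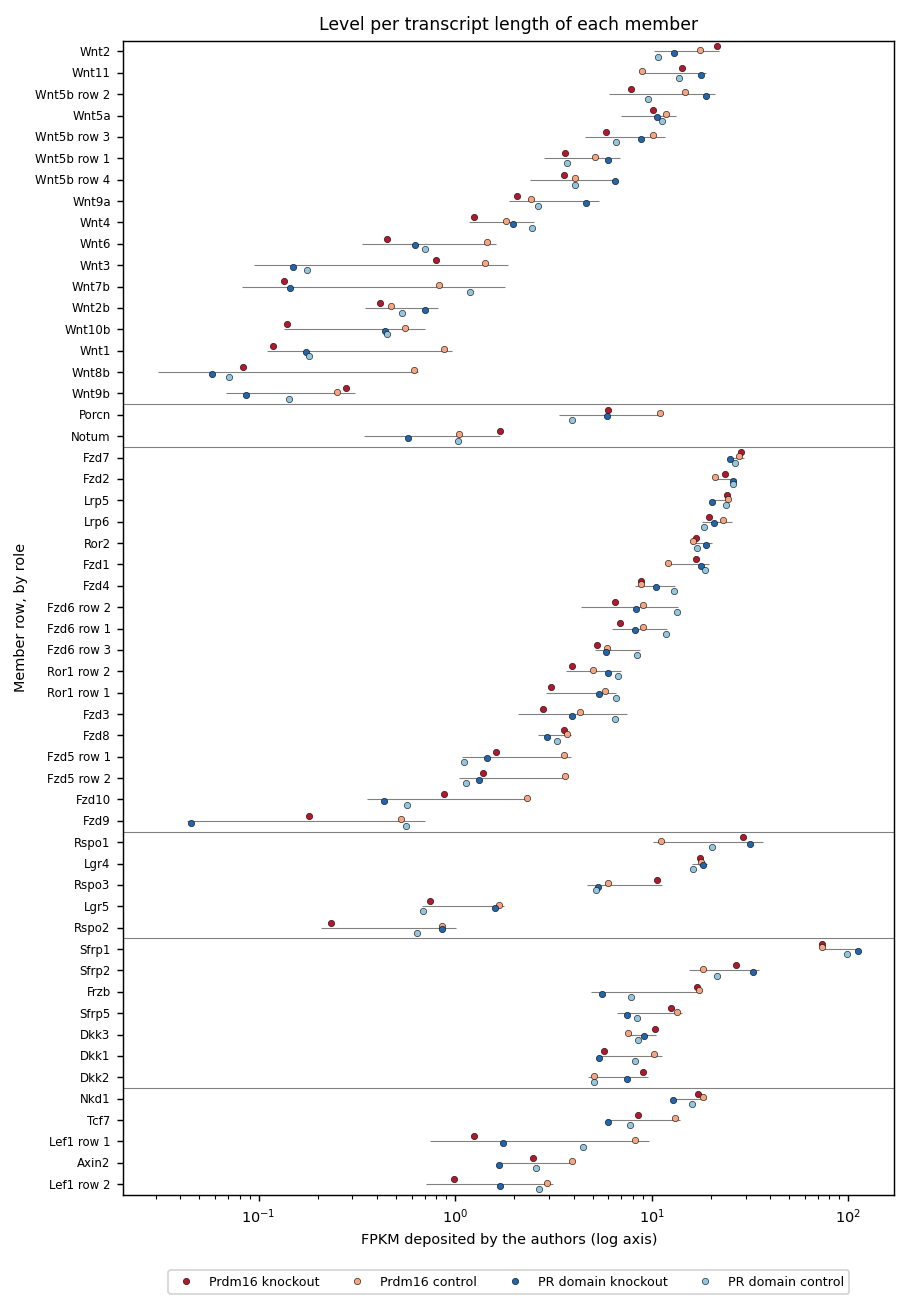
Level per transcript length of each member row, by role. Points are group means of 2 libraries, lines run from the lowest to the highest of the 8 libraries, and the axis is FPKM on a log scale; Sfrp1 stands alone above 72.9 FPKM, whereas Wnt8b, Wnt9b and Fzd9 fall below 1.

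In the Prdm16 knockout 29 of the 54 member rows were called, 9 higher and 20 lower. Over all loci tested 39.1% were called, 18.0% higher and 21.1% lower, so the members' share was 53.7%. Their median log2 change was -0.23, against -0.03 over all loci. In the PR domain knockout 22 of 54 rows were called, 9 higher and 13 lower, a share of 40.7%, against 19.2% of all loci, 8.48% higher and 10.7% lower. The median there was -0.09, against -0.03 over all loci. A restriction to the 39 rows with both libraries of every group at 10 or more was chosen after seeing the data. Among these rows the Prdm16 knockout had 21 calls (9 higher, 12 lower) and the PR domain knockout had 20 (9 higher, 11 lower). The shares of all loci given above are not restricted in this way. With a filter at a mean of at least 50, the Prdm16 knockout had 21 of 37 members called, against 5628 of 12118 loci. For the PR domain knockout that filter left 21 of 37 members called, against 2943 of 12118 loci. Dkk2, Rspo1, Sfrp2 and Wnt11 were called higher in both knockouts, and Dkk1, Tcf7, Wnt7b and the first rows of Lef1 and Ror1 were called lower in both. Of these, Wnt7b reached the floor only in control libraries, which favours the lower direction. Porcn was called lower in the Prdm16 knockout and higher in the PR domain knockout. In neither knockout were 13 rows called.

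How members split by direction in the PR domain knockout depended on the scaling: the 9 higher and 13 lower of the deposited scaling became 12 and 10 with TMM, 12 and 8 with median-ratio and 11 and 10 with total-fragment scaling, and edgeR called 12 higher and 11 lower. Among calls over all loci, 45.94% were higher in the Prdm16 knockout, with 39.31% under total-fragment and 55.03% under TMM scaling, and 44.2% were higher in the PR domain knockout, with 54.43% under median-ratio scaling. On log2(FPKM + 1), 13 of 45 members tested were called in the Prdm16 knockout, against 10.9% of all loci, and 0 of 45 in the PR domain knockout, against 2.92% of all loci, where 20 had an unadjusted p below 0.05. On the recovered fragments of the PR domain comparison edgeR called 23 of 54, against 20.6% of all loci, and DESeq2 8 of the 43 members to which it gave an adjusted p, against 12.2% of all loci.

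**Figure D2:**
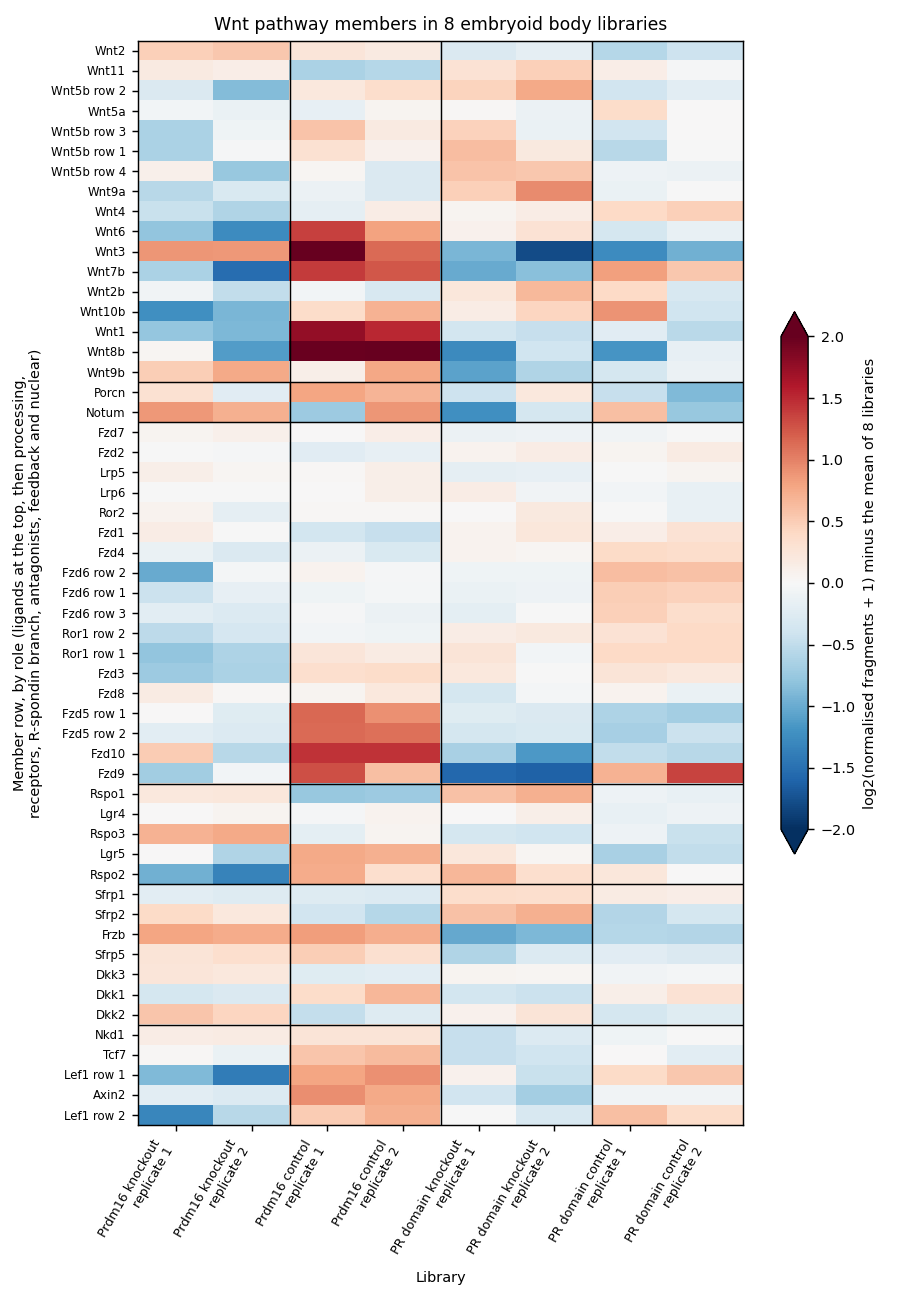
Level of each member row in each library, as log2(normalised fragments + 1) minus the row's mean over the 8 libraries, with knockout columns left of their control and rows by role. Red cells of Wnt1, Wnt8b, Fzd5 and Fzd10 stand in both Prdm16 control libraries, and the PR domain control libraries are not coloured alike for these rows.

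Of 17 ligand rows, 2 were higher, 6 lower and 9 not called in the Prdm16 knockout, where 39.1% of all loci were called. Of the 6 lower ligands, Wnt1, Wnt6, Wnt8b, Wnt7b and Wnt10b reached the floor in at least 1 Prdm16 control library and in neither Prdm16 knockout library. The floor thus favoured the lower direction for these 5, and their values are given as a description; Wnt4 was above the floor in all 8 libraries. Wnt1, which patterns the midbrain and dorsal neural tube (chr15:98789857-98793837, plus strand, GRCm38), had 2.48 and 2.2 normalised fragments in the Prdm16 knockout, against 19.1 and 16.0 in its control. It had 3.59 and 3.31 in the PR domain knockout, against 4.06 and 3.10 in the control of that knockout. It is a member only through its Prdm16 control libraries, so that this control is the high group follows from the floor. The 4 knockout fragments against 35 control fragments amount to 13.4% of the level in the control (3.45 to 37.4% as an exact 95% interval that covers counting error only), with a fitted change of -2.47 ± 0.56 (adjusted p = 0.000751).

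Wnt8b, a ligand of the forebrain, is likewise a member only through the Prdm16 control, with 3.72 and 1.10 in the Prdm16 knockout, against 17.0 and 18.8 in its control, and 0.897 and 2.48 in the PR domain knockout, against 1.01 and 3.10 in its control. The Prdm16 knockout kept 4 fragments, against 36, or 13.0% of the control level (3.36 to 36.3%, adjusted p = 0.0026). Wnt6, expressed in surface ectoderm of the embryo, had 4.96 and 3.30 in the Prdm16 knockout, against 25.4 and 16.9 in its control, or 19.5% of the control level (7.39 to 43.8%) and a change of -2.10 ± 0.45 (adjusted p = 0.000387). Its PR domain knockout libraries had 9.87 and 11.6, against 7.10 and 8.26 in their control, where Wnt6 was not called.

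Wnt7b, a ligand of placenta, lung and brain vessels, was the ligand called lower in both knockouts. It had 4.96 and 2.2 in the Prdm16 knockout, against 23.3 and 20.7 in its control, and 3.59 and 4.14 in the PR domain knockout, against 15.2 and 12.4 in its control. Wnt7b reached the floor in both libraries of each control set and in no knockout library. The floor thus favoured the lower direction in both pairs, and the values are given as a description. The changes were -2.39 ± 0.48 (adjusted p = 0.000169) and -1.60 ± 0.48 (adjusted p = 0.0159), and the second call ended without any 1 of the 4 PR domain libraries (adjusted p 0.0558 to 0.125). Wnt10b had 2.48 and 3.30 in the Prdm16 knockout, against 9.54 and 12.2 in its control (-1.61 ± 0.52, adjusted p = 0.0142), and Wnt4 had 48.4 and 42.9, against 58.3 and 73.4 (-0.51 ± 0.19, adjusted p = 0.0324). Neither call held without Prdm16 control replicate 2, where the changes were -1.45 (adjusted p = 0.0996) for Wnt10b and -0.35 (adjusted p = 0.271) for Wnt4. Leaving out Prdm16 knockout replicate 1 also ended the Wnt10b call (adjusted p = 0.0599), and leaving out replicate 2 the Wnt4 call (adjusted p = 0.149).

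Wnt11, which acts in gastrulation and heart development and has the core motif in the window printed above only (chr7:98835112-98855195, plus strand), had 218 and 212 in the Prdm16 knockout, against 124 and 130 in its control. It had 237 and 270 in the PR domain knockout, against 213 and 190 in its control. The Prdm16 control was thus the low group for Wnt11. Knockouts were above their own controls in both pairs, with changes of 0.76 ± 0.11 (adjusted p = 2.85e-06) and 0.33 ± 0.11 (adjusted p = 0.0375). The PR domain call ended without PR domain knockout replicate 2 (0.23, adjusted p = 0.324) or PR domain control replicate 2 (0.25, adjusted p = 0.285). Wnt2, a ligand of heart, lung and placenta, had 397 and 411 in the Prdm16 knockout, against 337 and 323 in its control (0.29 ± 0.09, adjusted p = 0.0132), and 233 and 251 in the PR domain knockout, against 192 and 214 in its control (0.26 ± 0.09, adjusted p = 0.0538). Its Prdm16 knockout call ended without Prdm16 knockout replicate 2 (adjusted p = 0.08) or Prdm16 control replicate 2 (adjusted p = 0.0928).

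Ligands called in the PR domain knockout were 4 higher rows, those of Wnt9a, Wnt11 and 2 of Wnt5b, and 1 lower row, that of Wnt7b. The other 12 of the 17 were not called, and over all loci 8.48% were higher and 10.7% lower. Wnt9a, a ligand of joints and skeleton, had 110 and 154 in the PR domain knockout, against 72.0 and 78.4 in its control, and 53.3 and 63.8 in the Prdm16 knockout, against 73.2 and 64.9 in its control. It was higher in the PR domain knockout, at 0.79 ± 0.18 (adjusted p = 0.00198), and without replicate 2 of that knockout the change was 0.55 (adjusted p = 0.121). Wnt5b, which acts in cartilage and in cell movement, is spread over 4 rows, of which rows 1 and 4 were called higher in the PR domain knockout. The call of row 1 (0.70, adjusted p = 0.0484) ended without 5 of the 8 single libraries, at 0.42 (adjusted p = 0.414) without PR domain control replicate 1, and with the replicate block (adjusted p = 0.0502). Row 4 had 117 and 115 there, against 73.0 and 72.2 in the control (0.67 ± 0.21, adjusted p = 0.0203), a call that ended without any 1 of these 4 libraries (adjusted p 0.085 to 0.112). Summed over its rows, Wnt5b had 128 and 106 in the Prdm16 knockout, against 164 and 137 in its control (-0.37 ± 0.14, adjusted p = 0.0324), and 216 and 195 in the PR domain knockout, against 119 and 136 in its control (0.69 ± 0.14, adjusted p = 0.000333). Wnt5a, a main ligand of the branches without beta-catenin, had 301 and 285 in the Prdm16 knockout, against 280 and 325 in its control, and 318 and 289 in the PR domain knockout, against 403 and 315 in its control, and was called in neither knockout.

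**Figure D3:**
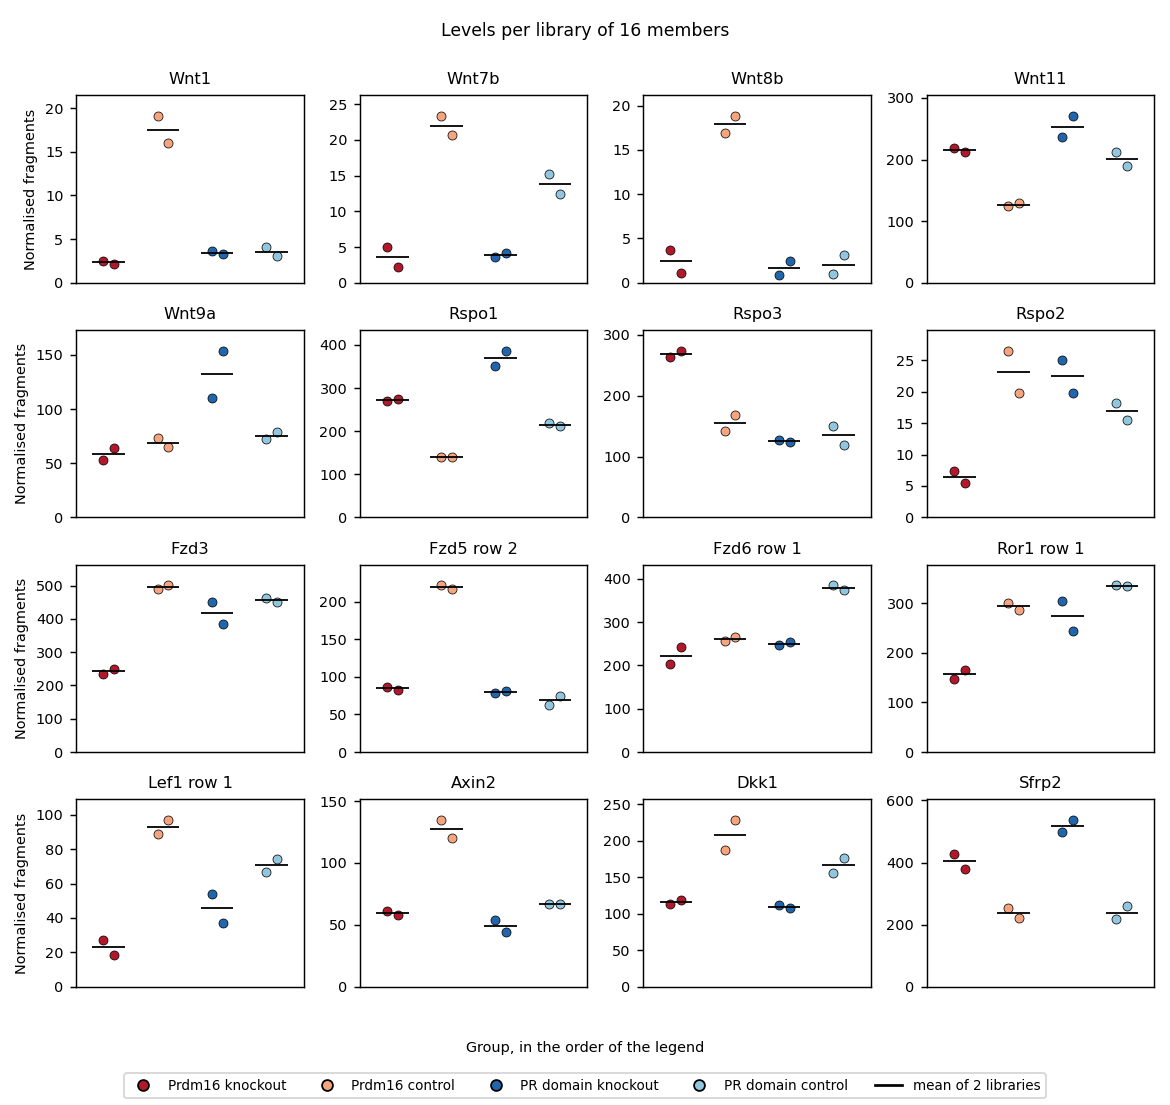
Normalised fragments of 16 member rows in each library, points, with the group mean as a line and knockouts left of their controls. Wnt1, Wnt8b and Fzd5 are high in the Prdm16 control alone, Sfrp2 and Rspo1 are higher in both knockouts, and Dkk1 is lower in both.

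Of the genes that process ligands, Porcn, the enzyme that attaches the lipid to Wnt proteins, had 102 and 70.4 in the Prdm16 knockout, against 143 and 133 in its control. It had 61.9 and 95.1 in the PR domain knockout, against 59.8 and 44.4 in its control. The Prdm16 control was thus the high group and the PR domain control the low group. The groups did not overlap in either pair. The changes were -0.70 ± 0.20 (adjusted p = 0.0068) and 0.57 ± 0.20 (adjusted p = 0.0486). Without Prdm16 knockout replicate 2 the first was -0.43 (adjusted p = 0.152), and without Prdm16 control replicate 1 it was -0.64 (adjusted p = 0.0693). The second was 0.26 (adjusted p = 0.569) without PR domain knockout replicate 2, 0.35 (adjusted p = 0.388) without PR domain control replicate 2 and 0.87 (adjusted p = 0.0112) without PR domain knockout replicate 1, and it also ended without either Prdm16 control library (adjusted p = 0.0701 and 0.0692). Porcn lies on chromosome X, and the part that the missing Y transcripts of the Prdm16 knockout play in its level was not tested. Notum, which removes the lipid, had 14.9 and 13.2 in the Prdm16 knockout, against 4.24 and 15.0 in its control, and 2.69 and 5.79 in the PR domain knockout, against 12.2 and 4.13 in its control, and was not called.

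Among the 18 receptor rows, 2 were higher, 6 lower and 10 not called in the Prdm16 knockout. In the PR domain knockout 7 were lower and 11 not called, 3 of the 7 being rows of Fzd6. Another of the 7 was Fzd9, for which the floor favoured the lower direction. Over all loci 39.1% and 19.2% were called. The abundant receptors stayed near their controls: Fzd7 had 1246 and 1289 in the Prdm16 knockout, against 1209 and 1315 in its control, and Lrp6 had 1282 and 1288 in that knockout, against 1293 and 1404 in its control. Neither was called in a knockout.

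Fzd3, a receptor of axon guidance and planar polarity (chr14:65192449-65262463, minus strand), had 234 and 250 in the Prdm16 knockout, against 489 and 500 in its control. It had 452 and 385 in the PR domain knockout, against 462 and 450 in its control. Only the Prdm16 knockout libraries stood apart, with a change of -1.03 ± 0.08 (adjusted p = 3.82e-11), against -0.13 ± 0.08 (adjusted p = 0.338) in the PR domain knockout. On log2(FPKM + 1) the Prdm16 knockout change was -0.51 (adjusted p = 0.192). Fzd5, a receptor of eye field and yolk sac (chr1:64730558-64737751, minus strand), had 86.8 and 82.5 in its second row in the Prdm16 knockout, against 222 and 217 in the control. In the PR domain knockout it had 78.9 and 81.1, against 62.9 and 74.3 in the control. The Prdm16 control was the high group, and the other 3 groups lay between 62.9 and 86.8. The change was -1.36 ± 0.15 (adjusted p = 1.89e-08) in the Prdm16 knockout, and the first row gave -1.14 ± 0.17 (adjusted p = 2.27e-06).

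Ror1, a receptor for Wnt5a, had 146 and 166 in its first row in the Prdm16 knockout, against 301 and 286 in its control (-0.91 ± 0.11, adjusted p = 4.4e-08). In the PR domain knockout it had 304 and 244, against 336 and 334 (-0.30 ± 0.11, adjusted p = 0.0473). Without replicate 2 of the PR domain knockout that change was -0.14 (adjusted p = 0.54), without replicate 1 it was -0.46 (adjusted p = 0.0114), and the call ended without either library of either control set as well (adjusted p 0.0586 to 0.174). The second row of Ror1 had 125 and 143, against 174 and 170, in the Prdm16 knockout (-0.36 ± 0.12, adjusted p = 0.0132), a call that ended without Prdm16 knockout replicate 1 (-0.26, adjusted p = 0.137) or Prdm16 control replicate 1 (-0.34, adjusted p = 0.0704). Fzd10, a receptor of dorsal neural tube, had 33.5 and 15.4 in the Prdm16 knockout, against 64.7 and 64.9 (-1.47 ± 0.34, adjusted p = 0.000768), and -0.93 (adjusted p = 0.0468) without knockout replicate 2.

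Fzd1 and Fzd2, widely expressed receptors, were the 2 receptors called higher in the Prdm16 knockout. Fzd1 had 648 and 583 in the knockout, against 453 and 425 in its control (0.49 ± 0.08, adjusted p = 5.69e-06), and 613 and 685 in the PR domain knockout, against 642 and 713 in its control (-0.06 ± 0.08, adjusted p = 0.642). The Prdm16 control was thus the low group for Fzd1. Fzd2 had 752 and 745, against 652 and 675 (0.17 ± 0.06, adjusted p = 0.0276), a call that ended without any 1 of these 4 libraries (adjusted p 0.0504 to 0.151) and under total-fragment scaling (0.13, adjusted p = 0.0857).

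The PR domain knockout was lower in other Frizzled genes. All 3 rows of Fzd6, which orients hair and inner ear cells, were lower there, and the first row (gene at chr15:39006034-39038188, plus strand) had 247 and 253, against 384 and 374 in the control. In the Prdm16 knockout it had 202 and 243, against 256 and 264. Here the PR domain control was the high group. The change in the PR domain knockout was -0.60 ± 0.10 (adjusted p = 2.73e-05), and the calls of row 2 (adjusted p = 0.0273) and row 3 (adjusted p = 0.014) ended without PR domain knockout replicate 1 (adjusted p = 0.117 and 0.137) or PR domain control replicate 1 (0.129 and 0.132), and that of row 2 also without replicate 2 of either group (0.124 and 0.107). Summed over rows, Fzd6 was lower in both knockouts, at -0.25 ± 0.08 (adjusted p = 0.0157) in the Prdm16 knockout and -0.60 ± 0.08 (adjusted p = 2.12e-06) in the PR domain knockout.

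Fzd4, a receptor of vessel growth, had 631 and 617 in the PR domain knockout, against 784 and 769 in its control (-0.32 ± 0.07, adjusted p = 0.00192), and 552 and 492 in the Prdm16 knockout, against 557 and 488. Lrp5 had 913 and 926 in the PR domain knockout, against 1030 and 1072 in its control (-0.19 ± 0.06, adjusted p = 0.0144), a call that ended without PR domain knockout replicate 1 (-0.18, adjusted p = 0.07) or PR domain control replicate 2 (-0.16, adjusted p = 0.155). Fzd9, which reached the floor in 2 control libraries only, had 0.897 and 0.827 in the PR domain knockout, against 8.11 and 13.4, or 2 fragments against 21, 8.01% of the control level (0.911 to 32.8%). In the Prdm16 pair Fzd9 had 2.48 and 4.40, against 12.7 and 7.52, and was not called (adjusted p = 0.0785). The floor favoured the lower direction of Fzd9 in both pairs, and its values are given as a description.

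In the R-spondin branch, ligand levels moved in both directions. Rspo1 (chr4:124986430-125009099, plus strand), whose upstream window is printed above, had 270 and 274 in the Prdm16 knockout, against 139 and 141 in its control. It had 352 and 386 in the PR domain knockout, against 219 and 212 in its control. Every knockout library was above every control library. The changes were 0.95 ± 0.10 (adjusted p = 5.32e-09) and 0.77 ± 0.10 (adjusted p = 6.36e-07). On log2(FPKM + 1) the PR domain change was 0.60 (adjusted p = 0.154).

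Rspo3, which acts on vessels and placenta (chr10:29452416-29535867, minus strand), had 263 and 274 in the Prdm16 knockout, against 142 and 168 in its control (0.79 ± 0.13, adjusted p = 1.21e-05). It had 126 and 123 in the PR domain knockout, against 151 and 119 in its control, where the groups overlapped. Rspo2, which acts in limb and lung, had 7.44 and 5.50 in the Prdm16 knockout, against 26.5 and 19.8 in its control, 28.0% of the control level (13.1 to 54.8%, adjusted p = 0.000437), and 25.1 and 19.9 in the PR domain knockout, against 18.3 and 15.5. Lgr5, the R-spondin receptor known from intestinal stem cells, had 32.3 and 20.9 in the Prdm16 knockout, against 55.1 and 53.6 (-1.04 ± 0.27, adjusted p = 0.00272), and 37.7 and 33.1 in the PR domain knockout, against 20.3 and 22.7 (0.69 ± 0.27, adjusted p = 0.0731). Without Prdm16 knockout replicate 2 the Prdm16 knockout change of Lgr5 was -0.74 (adjusted p = 0.0653). Lgr4, the more abundant receptor of the branch, was called in neither knockout.

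Of 7 secreted antagonists, 3 were called higher and 1 lower in the Prdm16 knockout, and 3 higher and 2 lower in the PR domain knockout. Over all loci 18.0% were higher and 21.1% lower in the first, and 8.48% and 10.7% in the second. Sfrp2 (chr3:83766321-83774316, plus strand) had 428 and 381 in the Prdm16 knockout, against 253 and 221 in its control, and 497 and 537 in the PR domain knockout, against 218 and 259 in its control. The 4 knockout libraries lay above the 4 control libraries. The changes were 0.77 ± 0.10 (adjusted p = 1.81e-07) and 1.12 ± 0.10 (adjusted p = 2.86e-10).

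Dkk2, a Dkk protein that can block or promote signalling, had 261 and 238, against 127 and 148, in the Prdm16 knockout (0.86 ± 0.12, adjusted p = 1.02e-06), and 188 and 211, against 138 and 149, in the PR domain knockout (0.47 ± 0.12, adjusted p = 0.00413). The second call ended without PR domain knockout replicate 2 (0.39, adjusted p = 0.0859) or PR domain control replicate 1 (0.42, adjusted p = 0.0566). Dkk1, the blocker of Lrp5 and Lrp6 and itself a target of the pathway (chr19:30545863-30549665, minus strand), had 113 and 119 in the Prdm16 knockout, against 188 and 229 in its control, and 112 and 108 in the PR domain knockout, against 156 and 176 in its control. It ran opposite to Dkk2, with all 4 knockout libraries below all 4 control libraries. The changes were -0.83 ± 0.13 (adjusted p = 7.39e-06) and -0.59 ± 0.13 (adjusted p = 0.00124).

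Sfrp1, the most abundant member (chr8:23411502-23449632, plus strand), had 2692 and 2623 in the Prdm16 knockout, against 2611 and 2585 in its control (0.03 ± 0.04, adjusted p = 0.549), and 4001 and 3940 in the PR domain knockout, against 3495 and 3420 in its control (0.20 ± 0.04, adjusted p = 0.000352). Both PR domain groups were above both Prdm16 groups. Dkk3, a divergent Dkk protein, had 301 and 295 in the Prdm16 knockout, against 216 and 221 (0.45 ± 0.09, adjusted p = 0.000345). Frzb had 74.5 and 81.9 in the PR domain knockout, against 102 and 101 (-0.38 ± 0.12, adjusted p = 0.0279), a call that ended without PR domain knockout replicate 1 (-0.31, adjusted p = 0.167), PR domain control replicate 1 (-0.37, adjusted p = 0.113) or PR domain control replicate 2 (-0.39, adjusted p = 0.0935). Sfrp5 was called in neither.

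The feedback and nuclear genes were the role with no member called higher in either knockout: 4 of 5 rows were lower in the Prdm16 knockout and 3 of 5 in the PR domain knockout. Over all loci 21.1% and 10.7% were called lower. Both Lef1 rows are among the 5, and the second was called in the Prdm16 knockout only. Axin2, the negative feedback gene that beta-catenin induces in many tissues (chr11:108920349-108950783, plus strand), had 60.8 and 58.3 in the Prdm16 knockout, against 135 and 120 in its control. It had 53.8 and 43.8 in the PR domain knockout, against 66.9 and 67.1 in its control. The groups did not overlap in either pair, and the Prdm16 control stood well above the other 3 groups. The changes were -1.08 ± 0.18 (adjusted p = 1.77e-05) and -0.46 ± 0.18 (adjusted p = 0.0818). On log2(FPKM + 1) the first was -0.52 (adjusted p = 0.112).

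Lef1 (chr3:131110471-131224356, plus strand) had 27.3 and 18.7 in its first row in the Prdm16 knockout, against 89.1 and 96.9 in its control, and 53.8 and 37.2 in the PR domain knockout, against 66.9 and 74.3 in its control. The changes were -1.99 ± 0.23 (adjusted p = 3.46e-08) and -0.64 ± 0.23 (adjusted p = 0.0474), the second of which was -0.38 (adjusted p = 0.43) without PR domain knockout replicate 2 and ended without either PR domain control library (adjusted p = 0.109 and 0.228) or either Prdm16 control library (0.0661 and 0.0675). Tcf7, known in T cells and early mesoderm, had 181 and 163, against 262 and 278, in the Prdm16 knockout (-0.65 ± 0.12, adjusted p = 5.07e-05), and 129 and 135, against 180 and 154, in the PR domain knockout (-0.33 ± 0.12, adjusted p = 0.0479). Without PR domain control replicate 1 the Tcf7 change in the PR domain knockout was -0.22 (adjusted p = 0.386), and the call also ended without either PR domain knockout library (0.188 and 0.109), without either Prdm16 control library (0.0617 and 0.0628) and under TMM scaling (adjusted p = 0.0734). Nkd1, a feedback inhibitor, had 305 and 307, against 328 and 329, in the Prdm16 knockout, where it was not called, and 199 and 228, against 258 and 274, in the PR domain knockout (-0.31 ± 0.10, adjusted p = 0.0176). That call ended without PR domain knockout replicate 1 (-0.22, adjusted p = 0.219) or PR domain control replicate 2 (-0.27, adjusted p = 0.151).

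**Figure D4:**
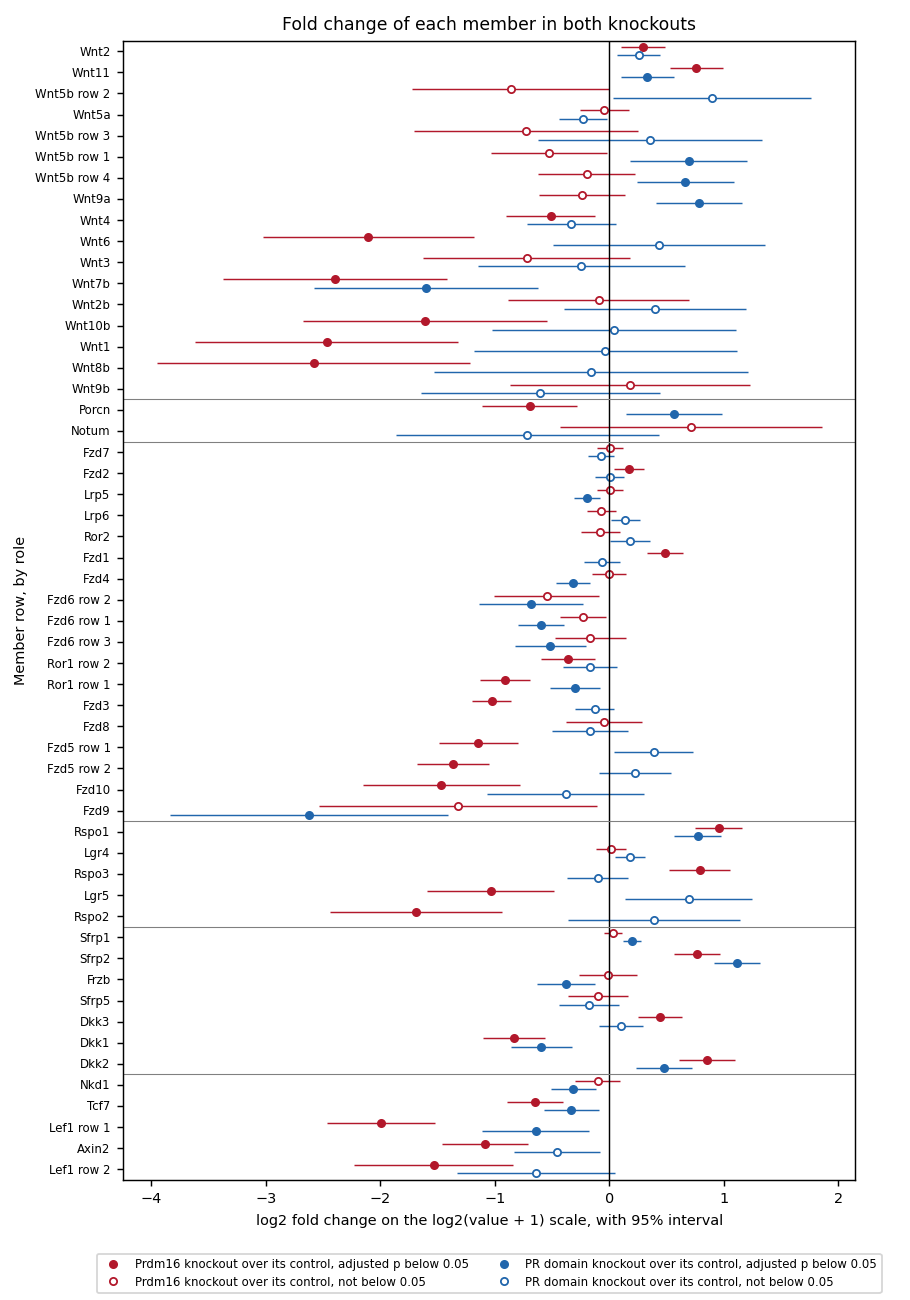
Log2 fold change of each member row over its own control in the Prdm16 knockout (red) and the PR domain knockout (blue), with 95% intervals on the log2(value + 1) scale and filled points for adjusted p below 0.05. Red points lie left of blue ones for Wnt1, Wnt6, Rspo2, Fzd5 and Lef1, and Sfrp2, Rspo1, Dkk2 and Wnt11 are filled on the right in both colours.

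The difference between the 2 knockout effects, the Prdm16 effect minus the PR domain effect, was called for 18 of 54 rows, 3 higher and 15 lower, a share of 33.3%. Of all loci 16.4% were called, 8.60% higher and 7.81% lower. Ligands gave 6 of the 15 lower rows: Wnt6 (-2.54 ± 0.64, adjusted p = 0.00553), Wnt1 (-2.43 ± 0.80, adjusted p = 0.0335), Wnt9a (-1.02 ± 0.26, adjusted p = 0.00601) and 3 rows of Wnt5b. Wnt1 reached the floor only in the Prdm16 control, and Wnt6 in both libraries of that group alone. Row 2 of Wnt5b reached it only in the Prdm16 control and the PR domain knockout. The floor favoured a negative difference for these rows, whose values are given as a description. Among receptors the difference was -0.90 ± 0.12 (adjusted p = 1.99e-06) for Fzd3 and -1.59 ± 0.22 (adjusted p = 2.75e-06) for the second row of Fzd5. Rspo2 differed by -2.08 ± 0.52 (adjusted p = 0.00513) and Lgr5 by -1.73 ± 0.38 (adjusted p = 0.00169), while Rspo3 differed by 0.89 ± 0.18 (adjusted p = 0.000806), Fzd1 by 0.55 ± 0.11 (adjusted p = 0.000437) and Fzd4 by 0.31 ± 0.10 (adjusted p = 0.0353). Of the members lower in the Prdm16 knockout, the difference was not called for Axin2 (-0.63 ± 0.26, adjusted p = 0.0974), Dkk1 (-0.24 ± 0.19, adjusted p = 0.431), Wnt7b (-0.79 ± 0.68, adjusted p = 0.482) or Wnt8b (-2.42 ± 0.95, adjusted p = 0.0797). On log2(FPKM + 1) the difference was called for 0 of 45 members, against 0.989% of all loci, with 16 at an unadjusted p below 0.05. With edgeR it was called for 18 of 54, against 17.3% of all loci, and with DESeq2 for 8 of the 40 with an adjusted p, against 8.59% of all loci. The Wnt1 difference ended without Prdm16 knockout replicate 2 or any library of the other 3 groups (adjusted p 0.0561 to 0.121), and the Wnt9a difference without PR domain knockout replicate 2 (-0.78, adjusted p = 0.0779). The Fzd4 difference ended under total-fragment scaling (0.25, adjusted p = 0.0974) and without Prdm16 knockout replicate 1, Prdm16 control replicate 2 or any PR domain library (adjusted p 0.0646 to 0.205).

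The control sets, both labelled wild type, differed at the members about as often as a knockout did from its control. The PR domain control was called different from the Prdm16 control at 26 of 54 rows, 10 higher and 16 lower, a share of 48.1%. Of all loci 33.0% were called, 16.3% higher and 16.7% lower. Wnt3, a ligand of the primitive streak, had 4.06 and 5.16 in the PR domain control, against 48.8 and 25.4 in the Prdm16 control (-2.70 ± 0.44, adjusted p = 1.41e-05), and was called in neither knockout. Frzb had 102 and 101 in the PR domain control, against 274 and 253 in the Prdm16 control (-1.36 ± 0.12, adjusted p = 2.53e-10). Fzd5, Wnt1, Wnt8b, Axin2 and Tcf7 were also lower in the PR domain control. Wnt3, Wnt1 and Wnt8b reached the floor only in libraries of the Prdm16 pair, so the floor favoured this direction for them. The Prdm16 knockout and control set comparisons share the Prdm16 control libraries. Their calls are thus not independent of each other. T, the primitive streak factor, had 1.24 and 3.30 in the Prdm16 knockout, against 31.8 and 30.1 in its control, and 1.79 and 2.48 in the PR domain knockout, against 2.03 and 3.10 in its control. T reached the floor only in the Prdm16 control libraries, so that this control is the high group follows from the floor.

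Other genes of the pathway came from 5 lists, to be read beside the shares of all loci called, 39.1% (Prdm16 knockout) and 19.2% (PR domain knockout). Of 17 tested modulators of secretion and the membrane, 7 were higher and 7 lower in the Prdm16 knockout, and 5 higher and 3 lower in the PR domain knockout. Gpc3, a cell surface proteoglycan, had 14622 and 14640 in the Prdm16 knockout, against 9521 and 9639 in its control (0.61 ± 0.03, adjusted p = 3.11e-16). Its PR domain knockout libraries had 9711 and 9725, against 8065 and 8096 in their control. Shisa3, which holds Frizzled receptors inside the cell, had 743 and 767, against 320 and 349 (1.17 ± 0.07, adjusted p = 1.3e-13). For Shisa3 the PR domain knockout had 545 and 514, against 456 and 430 in its control. Gpc4 was lower in both knockouts, with 264 and 264 in the Prdm16 knockout, against 505 and 574 in its control (-1.02 ± 0.09, adjusted p = 7.79e-11), and 258 and 256 in the PR domain knockout, against 358 and 340 in its control (-0.44 ± 0.09, adjusted p = 0.000349). Apcdd1, an inhibitor at the membrane, had 95.5 and 89.1 in the Prdm16 knockout, against 272 and 249 in its control (-1.49 ± 0.16, adjusted p = 1.03e-08). For Apcdd1 the PR domain knockout had 109 and 139, against 96.3 and 152 in its control. The Prdm16 control was thus the high group.

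Inside the cell, the beta-catenin transduction list had 2 higher and 8 lower of 18 in the Prdm16 knockout, and 2 higher and 5 lower in the PR domain knockout, at small changes. Ctnnb1, beta-catenin itself, had 8737 and 8656 in the PR domain knockout, against 10047 and 9749 in its control (-0.19 ± 0.03, adjusted p = 3.44e-05). Its row also carries the microRNA gene Mir7090. Of 12 nuclear partners 4 were lower and 8 not called in the Prdm16 knockout, and 2 were higher and 1 lower in the PR domain knockout, so the 4 of 12 lay below the 39.1% of all loci. Of these the Tle genes encode co-repressors of Tcf factors, and Tle1 had 207 and 224, against 366 and 363, in the Prdm16 knockout (-0.75 ± 0.10, adjusted p = 3.94e-07). For Tle1 the PR domain knockout had 234 and 221, against 242 and 285 in its control. Planar cell polarity genes had 1 higher and 5 lower of 16 in the Prdm16 knockout and 1 lower and 15 not called in the PR domain knockout, near the 39.1% of all loci in the first and below the 19.2% in the second. Celsr2, a cadherin of that system, had 54.6 and 40.7, against 156 and 144, in the Prdm16 knockout (-1.65 ± 0.20, adjusted p = 1.19e-07). Its PR domain knockout libraries had 60.1 and 65.3, against 81.1 and 50.6 in their control, so the Prdm16 control was the high group.

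Known targets of the pathway did not move as a block. Of 14 tested, 5 were higher and 5 lower in the Prdm16 knockout, with a median of 0.09, and 4 were higher and 1 lower in the PR domain knockout, with a median of -0.08. Between the control sets 2 were higher and 9 lower in the PR domain control, a comparison that called 33.0% of all loci. Ccnd1, the cyclin D1 gene, had 333 and 318 in the Prdm16 knockout, against 701 and 688 in its control (-1.09 ± 0.08, adjusted p = 1.57e-12). For Ccnd1 the PR domain knockout had 368 and 406, against 426 and 449 in its control. Sp5 had 21.1 and 11.0 in the Prdm16 knockout, against 45.6 and 48.9 (-1.57 ± 0.37, adjusted p = 0.00106), and 12.6 and 9.93 in the PR domain knockout, against 8.11 and 12.4. Lbh was higher, with 1274 and 1209 in the Prdm16 knockout, against 802 and 753 in its control (0.67 ± 0.05, adjusted p = 2.49e-11). For Lbh the PR domain knockout had 1420 and 1404, against 1210 and 1229 in its control. The Prdm16 control was thus the high group for Ccnd1 and Sp5 and the low group for Lbh.

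Cell type markers moved beside these members, and in bulk RNA fewer cells of a type and less RNA per cell cannot be told apart. Over all loci 18.0% were called higher and 21.1% lower in the Prdm16 knockout, and 8.48% and 10.7% in the PR domain knockout. All 6 neural progenitor markers were lower in the Prdm16 knockout, with a summed level of 743 to 754, against 1497 to 1507 in its control, beside the lower Fzd3, Fzd5 and Lef1. In the PR domain knockout 4 of the 6 were lower, at 1203 to 1208, against 1796 to 1852 in its control. There Fzd3 and Fzd5 were not called, and Lef1 was called lower in its first row only. Between the control sets the list was split, with 2 of the 6 higher and 3 lower in the PR domain control, whose sum was the higher. Of the 3 lower ones, Sox21 had 4.96 and 4.40 in the Prdm16 knockout, against 70.0 and 69.6 in its control, and 9.87 and 18.2 in the PR domain knockout, against 21.3 and 18.6 in its control. Sox1 had 3.72 and 12.1 in the Prdm16 knockout, against 55.1 and 41.4 in its control, and 0.897 and 3.31 in the PR domain knockout, against 4.06 and 2.06 in its control. Macrophage markers were higher at 5 of 5 in each knockout, at 2293 to 2337 in the Prdm16 knockout, against 984 to 1038 in its control, and at 5613 to 5678 in the PR domain knockout, against 2888 to 2951 in its control. Fibroblast markers had 4 of 6 higher and 1 lower in the Prdm16 knockout and 5 of 6 higher and 1 lower in the PR domain knockout, beside the higher Sfrp2, Rspo1, Dkk2 and Wnt11, at 100413 to 103065 in the Prdm16 knockout, against 73153 to 73480 in its control, and at 133080 to 134190 in the PR domain knockout, against 99982 to 101001 in its control. Cardiomyocyte markers had 5 of 6 lower in the Prdm16 knockout and 6 of 6 in the PR domain knockout, at 6183 to 6243 in the PR domain knockout, against 14173 to 14270 in its control, and at 4478 to 4493 in the Prdm16 knockout, against 6200 to 6479 in its control. Endothelial markers were lower at 5 of 5 in the PR domain knockout, at 3443 to 3484, against 5073 to 5287 in its control, beside the lower Fzd4 and Fzd6. In the Prdm16 knockout 4 of the 5 were lower and 1 higher, at 3084 to 3180, against 3647 to 3717 in its control, and there Fzd4 was not called. Endoderm and yolk sac markers had 4 of 6 higher in the Prdm16 knockout, at 34355 to 34965, against 15032 to 15734 in its control, beside the lower Fzd5. In the PR domain knockout 5 of the 6 were higher and 1 lower, at 6679 to 6976, against 4072 to 4271 in its control. Erythroid markers had 4 of 5 higher and 1 lower in the Prdm16 knockout, at 10102 to 10132, against 7121 to 7212 in its control, and 5 of 5 higher in the PR domain knockout, at 19521 to 19816, against 9864 to 10447 in its control. Neuron markers had 3 of 3 tested lower in the Prdm16 knockout, at 179 to 180, against 336.7 to 337 in its control, and 1 of 3 lower in the PR domain knockout, at 147 to 156, against 222 to 241 in its control. Pluripotent markers had 2 of 3 tested lower in the Prdm16 knockout, at 293 to 316, against 553 to 587 in its control. In the PR domain knockout 1 of the 3 was higher and 1 lower, at 46.7 to 66.2, against 143 to 146 in its control. Most of these lists also differed between the control sets, where 33.0% of all loci were called. Macrophage, erythroid and endothelial markers (each 5 of 5) and cardiomyocyte and fibroblast markers (each 5 of 6) were higher in the PR domain control. Endoderm and yolk sac (6 of 6), pluripotent (3 of 3 tested) and neuron markers (1 of 3 tested) were lower there. The part of these cell types in the levels of the members was not tested.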

How the data were processed

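RNA-seq was done on 8 libraries of total RNA from day 9 mouse embryoid bodies, prepared with the Illumina TruSeq protocol per the labels' protocols, and grouped by sample title into 4 groups of 2. TopHat2 2.1.1, Cufflinks 2.2.1, SAMtools 1.5 and deepTools were used on mm10, per the submitters' processing notes, which give none of them a role. The sources used here state neither the annotation nor whether counting used strand, and overlapping or antisense genes may share fragments.

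The authors deposited signal values, fragments per locus divided by a size factor per library. These were whole multiples of a step of 0.827 to 1.24 per library: at least 99.996% of values came out whole within 0.1, and with those fragments edgeR called 6470 loci (Prdm16 knockout) and 3418 loci (PR domain knockout). The authors also deposited FPKM values, used for levels between genes and as an alternative; their ratio to the fragments varied between libraries (Rspo1 had 10.2 and 12.2 FPKM in the Prdm16 control, at 139 and 141 normalised fragments). Loci without a name, 1.88 to 2.53% of fragments, were left out.

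The 16623 named loci that reached 10 in 2 or more libraries were fitted with limma-trend (limma 3.58.1, R 4.3.3) on log2(value + 1) over all 8 libraries as 4 group means, two-sided, with Benjamini-Hochberg adjustment over all of them. edgeR 4.0.16 and DESeq2 1.42.0 on the recovered fragments, other scalings, pseudocounts, filters, single libraries left out and a replicate block were the alternatives. The scripts were tested on simulated data. Fragments lack molecular identifiers, so intervals cover counting error only. No replicate pair was as close as sampling alone would make it (chi-square over degrees of freedom 1.40 to 2.23). The members and gene lists were chosen with earlier results of these data known, and every member may be named; from each further list up to 4 called genes per direction and knockout may be named, smallest adjusted p first. Sox1 and Sox21, among the markers, were chosen after their values were seen. Gene coordinates are from GENCODE M21 (GRCm38), the assembly also called mm10.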

Additional observations from a re-analysis of the deposited data

Results flagged for a closer look

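For 18 member rows the 2 knockout effects differed in the test of the difference itself (Prdm16 effect minus PR domain effect, limma-trend, adjusted over 16623 loci), against a background of 16.4% of all loci. Negative differences, meaning a lower Prdm16 effect, were found for 3 receptor genes: Fzd3 (-0.90, adjusted p = 1.99e-06), Fzd5 (-1.59 in the second row and -1.53 in the first, adjusted p = 2.75e-06 and 2.16e-05) and Ror1 in its first row (-0.61, adjusted p = 0.00466). Ligands with negative differences were Wnt6 (-2.54, adjusted p = 0.00553), Wnt1 (-2.43, adjusted p = 0.0335), Wnt9a (-1.02, adjusted p = 0.00601) and Wnt5b rows 1, 2 and 4 (-1.22, -1.76 and -0.86, adjusted p = 0.0155, 0.0408 and 0.04). For Wnt6, Wnt1 and row 2 of Wnt5b the floor favoured a negative difference, as described above. Rspo2 (-2.08, adjusted p = 0.00513), Lgr5 (-1.73, adjusted p = 0.00169), the first row of Lef1 (-1.35, adjusted p = 0.0039), Porcn (-1.26, adjusted p = 0.00226) and Sfrp1 (-0.17, adjusted p = 0.0391) were the others below 0. Positive differences were found for Rspo3 (0.89, adjusted p = 0.000806), Fzd1 (0.55, adjusted p = 0.000437) and Fzd4 (0.31, adjusted p = 0.0353). For Lgr5, Porcn, Wnt6, Wnt9a, Rspo2, Rspo3, Fzd1, Wnt5b and Fzd5 the fitted effects in the 2 knockouts had opposite signs. Porcn was the only single row called in both knockouts in opposite directions. The summed rows of Wnt5b were also called lower in the Prdm16 knockout and higher in the PR domain knockout. Between the control sets, with rows of a name summed, the PR domain control was called lower for Porcn (-1.40 ± 0.20), Lgr5 (-1.30 ± 0.27), Wnt6 and Fzd5. It was called higher for Fzd1 (0.62 ± 0.08), and Wnt9a, Rspo2, Rspo3 and Wnt5b were not called there.

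The difference at Ror1 ended without PR domain knockout replicate 1 (-0.45, adjusted p = 0.0623). The 3 Wnt5b rows each lost it without at least 4 single libraries, and row 4 was -0.44 (adjusted p = 0.304) without Prdm16 knockout replicate 2, while the sum of the Wnt5b rows differed by -1.06 ± 0.19 (adjusted p = 0.000195). Sfrp1 lost it without any library except PR domain knockout replicate 2, at adjusted p of 0.0537 to 0.154.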

How the results depend on the processing

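The 96 called single values (members and Prdm16, over 4 comparisons) kept their sign in 1858 of 1859 values under the alternatives and stayed called in 1589. The exception was the Fzd3 difference, 0.081 on log2(FPKM + 1), against -0.90, and the cause was not tested. Some alternatives cannot alter a fitted change: other filters, the replicate block and a fit of only the libraries compared. Leaving out a library of a group outside the comparison cannot alter it either. Values under these kept their sign by construction, so the 1858 do not measure how stable the signs are. Uncalled values that changed sign while staying uncalled, 73 of 4175 alternative values, were not counted as reversed. Prdm16 in the Prdm16 knockout was -0.69 (adjusted p = 0.213) on log2(FPKM + 1); leaving out single libraries gave -3.65 to -1.11 there and -1.18 to -0.23 in the PR domain knockout.

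Member calls on log2(FPKM + 1), with 45 members tested, were 13 in the Prdm16 knockout, 0 in the PR domain knockout, 0 for the difference and 13 for the control sets (8.82% of all loci), with 24, 20, 16 and 22 at an unadjusted p below 0.05. With DESeq2 the PR domain knockout had 8 of the 43 with an adjusted p and the difference 8 of 40, with no filter on low values 12 and 11, against 7.70% and 5.67% of all loci, and with a 1.5-fold minimum the PR domain knockout had 11 and the control sets 17, against 7.13% and 12.8%. Leaving out single libraries gave 25 to 29 calls in the Prdm16 knockout, 12 to 24 in the PR domain knockout, 11 to 19 for the difference and 22 to 26 for the control sets. A lone library left in a group was then assumed to vary like the other groups. Calls over all loci also fell whenever a library of a compared group was left out. The PR domain counts were 14 and 12 without knockout replicates 1 and 2 and 12 and 14 without control replicates 1 and 2, and the difference had 11 without PR domain knockout replicate 1.

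Replicate numbers pair no samples in the labels, and deviations of same-numbered libraries correlated at -0.04 to 0.03 across loci. With the replicate block the counts were 30, 20, 18 and 26, against 29, 22, 18 and 26 without it. Over all 16623 loci the block gave 6438, 3149, 2686 and 5442 calls, against 6502, 3190, 2728 and 5481 without it. Refitting with the rows of the same name summed, an alternative chosen after seeing the data, gave 28, 19, 16 and 23 of 46 genes. A fit of only the libraries compared was not run for the difference, which uses all 8.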

Other observations

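Wnt3, Wnt8a and Wnt3a are ligands of the primitive streak. Wnt3 had 21.1 and 20.9 normalised fragments in the Prdm16 knockout, against 48.8 and 25.4 in its control, and 5.38 and 2.48 in the PR domain knockout, against 4.06 and 5.16 in its control. Wnt8a, below the floor and untested, had 4.96 and 5.5 in the Prdm16 knockout, against 6.36 and 4.70 in its control. It had 0 and 0 in the PR domain knockout, against 0 and 1.03 in its control. Wnt3a, also untested, had 1.24 and 0 in the Prdm16 knockout, against 6.36 and 2.82 in its control, and 0 in all 4 PR domain libraries.

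Among members called in neither knockout, Sfrp5 had 189 and 199 in the Prdm16 knockout, against 221 and 196 in its control, and 103 and 130 in the PR domain knockout, against 134 and 128 in its control. Its PR domain control was lower than its Prdm16 control, at -0.66 ± 0.13 (limma adjusted p = 0.000152). Ror2, the other Ror receptor, had 533 and 447 in the Prdm16 knockout, against 517 and 514 in its control, and 509 and 582 in the PR domain knockout, against 504 and 457 in its control. Fzd8 had 108 and 97.9 in the Prdm16 knockout, against 101 and 112 in its control, and 75.4 and 93.5 in the PR domain knockout, against 101 and 87.7 in its control, and the groups overlapped in both pairs.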
